A study of Mus musculus with 6 samples.

Results

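The 8 genes followed here encode caspases (Casp2, Casp4, Casp6, Casp8 and Casp9), the kinases Ripk1 and Ripk3, and the pseudokinase Mlkl. They were taken by symbol in the GENCODE M21 annotation from a deposited table of 55487 genes. The list of 8 was chosen with earlier results of these data known. Each of the 8 matched 1 row, and all 8 were among the 12930 genes that passed the filter on low counts. RNA came from RAW264.7, a mouse macrophage line used as a source of osteoclast-like cells. Of the 6 libraries, 3 carry the genotype label RhoA knockout and the title SMART-Cas9, and 3 carry the label wt and the title Control; the first are called knockout-labelled libraries. RANKL and M-CSF, the cytokines of osteoclast formation, are given as the treatment of both groups. The design text describes the control as an untreated macrophage line, and no group received Cas9 without the targeting of RhoA, so an effect of Cas9 delivery and one of the edit cannot be told apart. All samples come from 1 cell line, the labels do not say whether the edited cells are a clone or a pool, and they do not say whether replicates were separate cultures. The p-values therefore measure the spread between these libraries, which may be technical.

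Caspases are cysteine proteases that cut their substrates after aspartate. Initiator caspases are activated on adaptor platforms: caspase-8 at death receptors, caspase-9 on the apoptosome and caspase-2 on the PIDDosome. Caspase-8 and caspase-9 pass the signal to effector caspases, a group that includes caspase-6. Mouse Casp4, also called caspase-11, binds bacterial lipopolysaccharide in the cytosol and cuts gasdermin D, which then opens pores in the membrane (pyroptosis). In necroptosis RIPK3, activated through RIPK1, ZBP1 or TRIF, phosphorylates MLKL, which breaks the plasma membrane. Caspase-8 together with cFLIP, the product of Cflar, holds this route in check by cutting RIPK1 and RIPK3. Pyroptosis and necroptosis are both known in macrophages as responses to infection.

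Rhoa, the targeted gene, had 2805, 2670 and 2395 counts in knockout-labelled libraries, against 1655, 1510 and 1440 counts in control libraries (log2 fold change 0.41 ± 0.12, SE; edgeR adjusted p = 0.0136). Its RNA was thus not lower under the knockout label, which the text therefore cites as a label throughout. The call was lost without control replicate 1 (adjusted p = 0.0645) and without knockout replicate 1 (0.0741), within a range of 0.000302 to 0.0741 over 16 alternatives. Library totals ran from 60198645 to 81830819 counts. All 9 macrophage markers were counted in every library. Their summed level was 83509 to 117157 counts per 1000000 (CPM) under the knockout label and 19683 to 21205 CPM in controls. Such a sum weighs the most abundant markers most and does not give the direction of each. Of 7 osteoclast markers Calcr and Oscar were at 0, and the list summed to 17.1 to 17.9 CPM under the knockout label and to 17.5 to 22.2 CPM in controls. Of 27 markers of 7 other cell types, none was counted in all libraries, and no list of them summed to more than 1.44 CPM in a library. In such bulk RNA, fewer cells of a type and less RNA per cell cannot be told apart.

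Casp4 and Mlkl fell in the libraries labelled RhoA knockout, to 0.243 and 0.288 times their control levels, and the other 6 genes did not pass the test. Casp4 encodes the lipopolysaccharide-sensing caspase of pyroptosis and Mlkl the executioner of necroptosis. None of the 8 genes was called higher. The test was edgeR's quasi-likelihood test with Benjamini-Hochberg adjustment over all 12930 genes at 0.05, which called 43.2% of them in either direction and 22.3% lower. The share of called genes among the 8, 25.0%, was thus not above that of all genes. The median log2 fold change of the 8 was -0.005, beside -0.03 over all genes tested. Short genes lay higher under the knockout label than long ones. By total exon length, the median log2 fold change was 0.31 in the shortest quartile of genes and -0.44 in the longest. The longest quartile holds Casp2 and Ripk1. With a correction for this trend Casp4 and Mlkl had log2 fold changes of -2.07 and -2.06. Scaling by library totals alone moved the median of all genes to 0.15 and the split of calls to 3097 higher and 2083 lower, beside 2713 and 2879 with TMM scaling, with -1.88 for Casp4 and -1.62 for Mlkl. The part of the higher summed macrophage markers in these results was not tested.

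**Figure D1:**
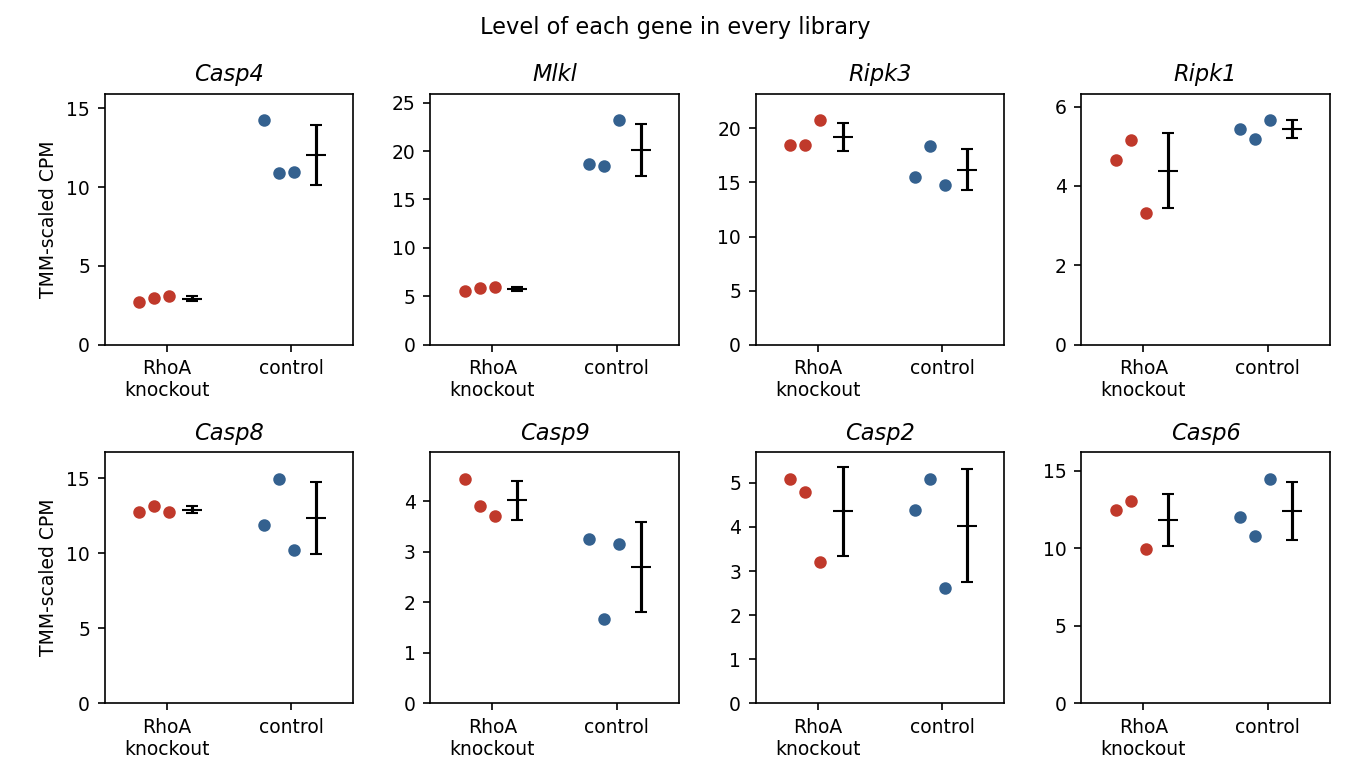
Level of each gene in every library, as TMM-scaled CPM on a linear axis from 0. Red points are the 3 libraries labelled RhoA knockout and blue points the 3 control libraries, and the black mark gives the mean and SD. Casp4 and Mlkl show groups that lie far apart, from 2.73 to 3.09 against 10.9 to 14.2 CPM for Casp4.

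Casp4 (ENSMUSG00000033538.13, GRCm38 chromosome 9, 5308828 to 5336783, plus strand) had 224, 263 and 235 counts in knockout-labelled libraries, against 1098, 637 and 646 counts in control libraries. Scaled for library size by the TMM method, this was 2.73, 2.94 and 3.09 CPM under the knockout label and 14.2, 10.9 and 11.0 CPM in controls. The knockout-labelled libraries lay close together and well below the lowest control. The log2 fold change was -2.04 ± 0.18 (SE; 95% interval -2.44 to -1.64; edgeR adjusted p = 3.25e-06). Over the alternatives it stayed between -2.14 and -1.88, called each time with adjusted p-values up to 0.000153.

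Mlkl (ENSMUSG00000012519.14, chromosome 8, 111311797 to 111338177, minus strand) had 456, 521 and 453 counts in knockout-labelled libraries, against 1438, 1080 and 1365 counts in control libraries. These counts correspond to 5.56, 5.83 and 5.96 CPM under the knockout label and to 18.6, 18.5 and 23.2 CPM in controls. Here too the groups were far apart, and the control libraries varied more than the others. The log2 fold change was -1.80 ± 0.15 (SE; 95% interval -2.12 to -1.47; edgeR adjusted p = 1.71e-06). Its range over the alternatives was -2.06 to -1.62, with adjusted p-values up to 7.34e-05.

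Promoter windows of the members are shown because Casp4 and Mlkl fell together while Ripk1 did not pass the test. RefSeq (GRCm38.p6) gave 10 windows for the 8 genes, each with 250 bases before and 50 after an annotated start, of which the first 260 bases are printed. Capitals mark matches, on either strand, to the core of the interferon-stimulated response element (ISRE, GAAA repeated after 2 bases of any kind), to a shorter IRF element (AANNGAAA, which can lie within an ISRE core), to the STAT site GAS (TTCNNNGAA), and to the NF-kB consensus. Lines are given 5′ to 3′ on the strand of the gene.
Casp4 (first annotated start), chr9:5308599-5308858, plus strand: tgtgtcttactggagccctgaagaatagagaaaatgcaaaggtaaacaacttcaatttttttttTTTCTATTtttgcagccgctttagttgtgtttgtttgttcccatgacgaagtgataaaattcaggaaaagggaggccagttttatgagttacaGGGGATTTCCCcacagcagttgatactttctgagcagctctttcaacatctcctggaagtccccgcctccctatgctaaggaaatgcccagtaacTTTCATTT
Mlkl, chr8:111338196-111338455, minus strand: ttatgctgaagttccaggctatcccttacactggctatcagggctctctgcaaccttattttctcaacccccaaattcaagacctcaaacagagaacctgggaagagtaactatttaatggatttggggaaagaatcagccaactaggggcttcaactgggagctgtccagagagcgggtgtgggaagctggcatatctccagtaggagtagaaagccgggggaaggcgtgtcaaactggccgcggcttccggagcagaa
Ripk1 (second annotated start), chr13:34002624-34002883, plus strand: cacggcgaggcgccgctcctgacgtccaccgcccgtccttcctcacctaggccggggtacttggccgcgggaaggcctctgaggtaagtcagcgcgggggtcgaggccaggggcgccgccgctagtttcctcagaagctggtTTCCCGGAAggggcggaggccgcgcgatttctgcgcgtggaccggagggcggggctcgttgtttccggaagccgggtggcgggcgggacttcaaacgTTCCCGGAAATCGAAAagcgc
Casp4 has 2 annotated starts, and the window of the first held overlapping NF-kB matches, GGGGATTTCC and GGGATTTCCC, that begin 93 and 92 bases before that start, and IRF elements on the minus strand. The window of the second start overlaps it and held the same NF-kB matches, 104 and 103 bases before the second start. No match to any of the 4 motifs lay in the Mlkl window. The second Ripk1 window held an ISRE core, GAAATCGAAA, across the start, and GAS matches 108 and 11 bases before it, of which the second overlaps the ISRE core. The Casp8 window held IRF elements, and those of Casp2, Casp6, Casp9 and Ripk3 and the first of Ripk1 held none of the motifs. Of all 32851 RefSeq windows, 3.44% held the ISRE core, 23.9% the IRF element, 8.3% GAS and 4.51% the NF-kB consensus. A match describes letters only.

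The kinases that act above Mlkl did not pass the test. Ripk3, the kinase that phosphorylates MLKL (chromosome 14, 55784995 to 55788865, minus strand), had 18.5, 18.5 and 20.7 CPM in knockout-labelled libraries, against 15.5, 18.3 and 14.7 CPM in control libraries. The highest control lay just under the lowest knockout-labelled library. The log2 fold change was 0.25 ± 0.13 (SE; 95% interval -0.04 to 0.54; edgeR adjusted p = 0.151), and -0.01 with a correction for the length trend. Ripk1, the kinase at the branch between survival signalling, apoptosis and necroptosis (chromosome 13, 34002363 to 34037147, plus strand), had 4.66, 5.16 and 3.33 CPM under the knockout label and 5.44, 5.19 and 5.65 CPM in controls. Its groups barely separated, with knockout replicate 3 the lowest. The log2 fold change of Ripk1 was -0.31 ± 0.22 (SE; 95% interval -0.78 to 0.17; adjusted p = 0.283), and 0.07 with the length correction. Ripk1 is uncertain because 241 bases of its exons lie opposite exons of Serpinb6a, which held up to 3048 counts in a library, and whether the counting used strand is not stated.

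The initiator caspases did not pass the test either. Casp8 (chromosome 1, 58795374 to 58847503, plus strand) had 12.8, 13.2 and 12.7 CPM in knockout-labelled libraries, against 11.9, 14.9 and 10.2 CPM in control libraries. The knockout-labelled values lay inside the range of the controls. Its log2 fold change was 0.06 ± 0.16 (SE; 95% interval -0.28 to 0.41; edgeR adjusted p = 0.783), so the interval leaves out a fall as large as that of Casp4 or Mlkl. Casp9, which is activated on the apoptosome (chromosome 4, 141793612 to 141815976, plus strand), had 4.45, 3.90 and 3.71 CPM under the knockout label and 3.27, 1.67 and 3.16 CPM in controls. All knockout-labelled libraries lay above the controls, of which replicate 2 was low with 98 counts. The log2 fold change of Casp9 was 0.57 ± 0.29 (SE; 95% interval -0.05 to 1.20; adjusted p = 0.13), from 0.30 to 0.76 over the alternatives, none of which called it. Casp2, the caspase of the PIDDosome (chromosome 6, 42264985 to 42282508, plus strand), had 5.08, 4.79 and 3.20 CPM under the knockout label and 4.39, 5.09 and 2.61 CPM in controls. Replicate 3 was the lowest of both groups, and the groups overlapped. For Casp2 the log2 fold change was 0.11 ± 0.29 (SE; 95% interval -0.51 to 0.73; adjusted p = 0.785).

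Casp6, an effector caspase (chromosome 3, 129901425 to 129914103, plus strand), had 12.5, 13.0 and 9.93 CPM in knockout-labelled libraries, against 12.01, 10.8 and 14.5 CPM in control libraries. The groups overlapped, with replicate 3 the lowest of the knockout-labelled libraries and the highest of the controls. Its log2 fold change was -0.07 ± 0.16 (SE; 95% interval -0.43 to 0.29; edgeR adjusted p = 0.756). Across the 8 genes the groups did not overlap for Casp4, Mlkl, Ripk1, Ripk3 and Casp9, beside 55.8% of all tested genes.

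**Figure D2:**
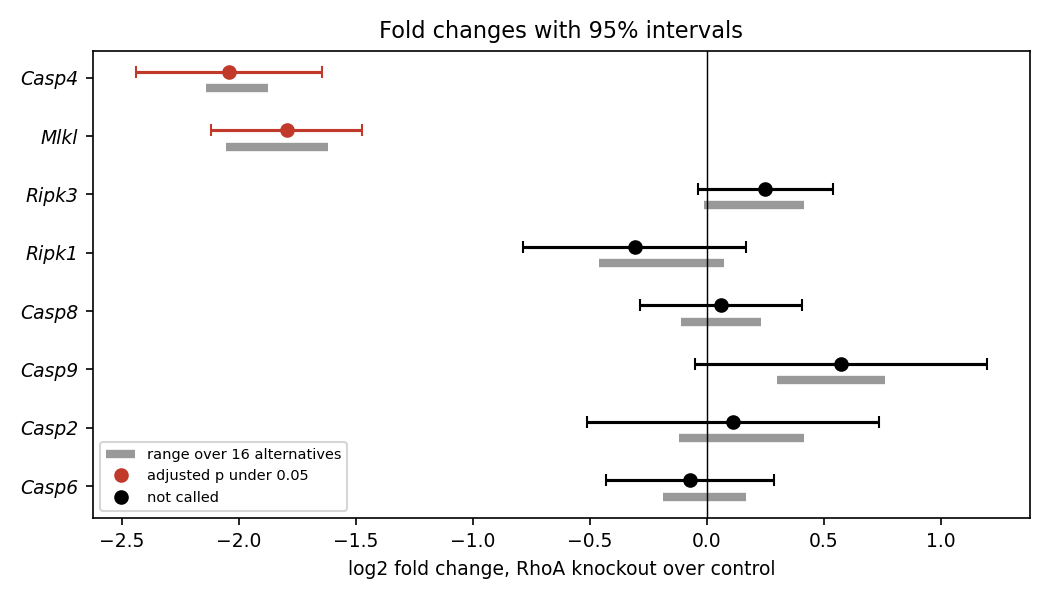
Log2 fold change of each gene, knockout label over control, with its 95% interval (upper mark) and the range over 16 alternative analyses (grey bar). The intervals of Casp4 and Mlkl (red) end at -1.64 and -1.47, and those of the other 6 genes include 0.

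Set per kilobase of annotated exon, the levels came in another order in each group. Under the knockout label Ripk3 was the most abundant with 8.39 ± 0.57 CPM per kb (SD, n = 3), followed by Casp8 with 4.45 ± 0.08, Mlkl with 2.51 ± 0.09 and Casp6 with 2.12 ± 0.30. Casp4, Casp9, Casp2 and Ripk1 followed with means of 0.787, 0.774, 0.617 and 0.525 CPM per kb, and within these 4 the ranges of neighbouring genes overlapped. In controls Mlkl led with 8.72 ± 1.16 CPM per kb, with Ripk3 next at 7.06 ± 0.83, and the highest Ripk3 value lay just under the lowest Mlkl value. Casp8 with 4.27 ± 0.83, Casp4 with 3.24 ± 0.52 and Casp6 with 2.22 ± 0.34 CPM per kb came next in controls, and Casp8 and Casp4 overlapped in range. Ripk1, Casp2 and Casp9 were lowest there with 0.651, 0.571 and 0.519 CPM per kb, and neighbours among them overlapped. The exon length covers all annotated transcripts of a gene, so these levels depend on which of them the cells make.

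Ratios within a library do not depend on how libraries are scaled to each other, and 4 were compared by exact two-sided permutation tests, which cannot go below p = 0.1 with 3 libraries against 3. Casp8 held 2.30, 2.26 and 2.14 counts for each count of Mlkl in knockout-labelled libraries, against 0.638, 0.810 and 0.440 in control libraries (exact p = 0.1, 0.133 adjusted over the 4 ratios). Cflar held 0.253, 0.421 and 0.547 counts for each count of Casp8 under the knockout label and 2.79, 2.37 and 3.15 in controls, again without overlap (exact p = 0.1, adjusted 0.133). The Ripk1 to Ripk3 ratio was 0.252, 0.279 and 0.160 under the knockout label and 0.352, 0.283 and 0.384 in controls (exact p = 0.1, adjusted 0.133). Its groups touched almost at 0.279 and 0.283, and the overlap of Ripk1 with Serpinb6a bears on it. The match of a Cflar transcript to Wdcp, given below, bears on the Cflar to Casp8 ratio. The ratios were not corrected for the length trend, and exons cover 8344 bases for Ripk1 and 2292 for Ripk3. With the length correction the log2 fold changes of Ripk1 and Ripk3 were 0.07 and -0.01. For Cflar, with 12669 bases, the corrected value was -2.10, and for Casp8, with 2893 bases, it was -0.11. The Casp8 to Ripk3 ratio was 0.690, 0.712 and 0.615 under the knockout label and 0.768, 0.815 and 0.692 in controls, with overlapping groups (exact p = 0.2).

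**Figure D3:**
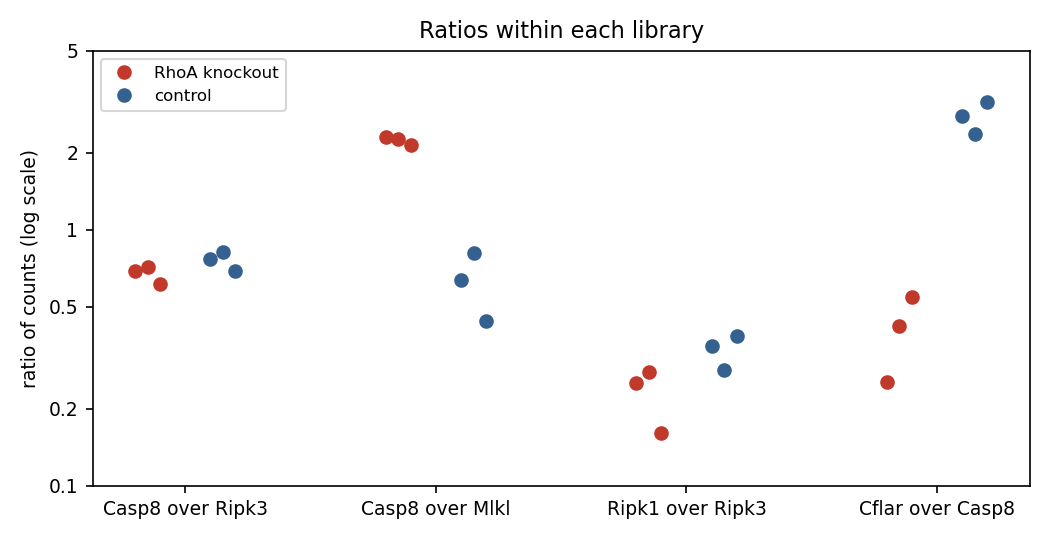
Ratios of counts of 2 genes within each library, on a log axis, with red points for the 3 libraries labelled RhoA knockout and blue points for the 3 control libraries. Casp8 to Mlkl lies at 2.14 to 2.30 against 0.440 to 0.810, and Cflar to Casp8 at 0.253 to 0.547 against 2.37 to 3.15.

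Partner genes of the 8 were grouped in 7 lists, and 85 of the 91 found in the table were tested. Of all genes tested, 43.2% were called, 22.3% lower and 21.0% higher. Shares called ran from 41.7% to 75.0% over the lists, which were chosen with earlier results known. In the necrosome list 5 of 13 genes fell and 3 rose, with 5 not called (61.5% called in all, median log2 fold change -0.35). Zbp1, the sensor that activates RIPK3 directly, fell to 0.711 ± 0.090 CPM in knockout-labelled libraries, against 10.1 ± 0.92 CPM in control libraries (SD, n = 3 each; log2 fold change -3.83 ± 0.22, SE; edgeR adjusted p = 1.11e-07). Ppm1b, a phosphatase reported to act on RIPK3, fell to 2.54 ± 0.67 CPM, against 17.5 ± 0.93 CPM in controls (log2 fold change -2.79 ± 0.20, adjusted p = 6.52e-07). Adar, an RNA-editing enzyme that restrains ZBP1, had a log2 fold change of -1.05 ± 0.16 and is uncertain where its exons lie opposite those of Chrnb2. The mitotic kinase Aurka rose by 1.68 ± 0.14 on the log2 scale.

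In the death receptor list, the longest of the 7, 11 of 21 genes were lower, 3 higher and 7 not called (median -0.69). In all, 66.7% were called, beside 43.2% of all tested genes. Cflar, the neighbour of Casp8 on chromosome 1 and the inhibitor of its activation, fell to 5.24 ± 1.89 CPM under the knockout label, against 33.6 ± 1.71 CPM in controls (SD, n = 3 each; log2 fold change -2.68 ± 0.23, edgeR adjusted p = 3.17e-06). A stretch of 207 bases of a Cflar transcript matches Wdcp at 95.2%, and Wdcp held up to 137 counts. That was up to 47.5% of the Cflar count in a library, and its bearing on Cflar was not tested. Fadd, the adaptor between death receptors and caspase-8, rose to 3.45 ± 1.28 CPM, against 0.871 ± 0.241 CPM in controls (log2 fold change 1.99 ± 0.37, adjusted p = 0.000854). Its 201, 270 and 372 counts under the knockout label stood against 48, 52 and 65 in controls. Tab2 and Otulin, an adaptor of the kinase TAK1 and a deubiquitinase of linear ubiquitin chains, fell by 1.32 ± 0.23 and 0.92 ± 0.17 on the log2 scale.

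Among inflammatory caspases and pyroptosis genes 9 of 15 were lower, 1 higher and 5 not called (median -0.63). The share called was 66.7%, beside 43.2% of all tested genes. Casp1, the caspase of the canonical inflammasome and the neighbour of Casp4 on chromosome 9, was taken after its values were seen, as were Gsdmd, Casp12 and Pycard. Casp1 had 11.6 ± 0.32 CPM under the knockout label and 17.9 ± 0.94 CPM in controls (SD, n = 3 each; log2 fold change -0.63 ± 0.12, edgeR adjusted p = 0.00145). The change of Gsdmd, the pore-forming substrate of both caspases, was -0.46 ± 0.12 on the log2 scale (adjusted p = 0.00879). Casp12, on the other side of Casp4, had no count in any library, and Pycard, the adaptor ASC, had at most 12. Gsdme, a gasdermin, was the 1 gene of the list that rose, to 59.2 ± 6.19 CPM, against 8.49 ± 0.16 CPM in controls (log2 fold change 2.80 ± 0.12, adjusted p = 1.35e-08). Il1a had no count under the knockout label, against 762, 508 and 508 counts in controls, which is at least 754-fold lower with a floor of 3 counts over the group. Il1b had 16, 0 and 0 counts under the knockout label, against 755, 521 and 513 counts in controls. Both encode interleukin-1 cytokines. A second gene of the list was called higher without control replicate 3 or knockout replicate 2. Irgm1, an immunity-related GTPase, fell by 1.21 ± 0.19 on the log2 scale.

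The lists around apoptosis were called in both directions, 62.5% of the intrinsic and 41.7% of the effector list, beside 43.2% of all tested genes. Of 8 tested genes of intrinsic apoptosis and its inhibitors 3 were lower, 2 higher and 3 not called (median -0.32, but 0.14 with the length correction). Apaf1, the scaffold on which caspase-9 is activated, fell to 0.950 ± 0.274 CPM under the knockout label, against 2.91 ± 0.59 CPM in controls (SD, n = 3 each; log2 fold change -1.61 ± 0.34, edgeR adjusted p = 0.00229). Xiap, an inhibitor of caspase-9 and the effector caspases, fell by 1.24 ± 0.22 on the log2 scale. With the length correction Apaf1 and Xiap had log2 fold changes of -1.20 and -0.78. Cycs, which encodes cytochrome c, rose by 0.46 ± 0.14 (adjusted p = 0.0175, but 0.101 without control replicate 2, over a range of 0.000261 to 0.101). Htra2, a mitochondrial protease, had a log2 fold change of 0.78 ± 0.12 and is uncertain because its exons lie opposite those of Aup1, with up to 15193 counts.

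Of 12 effector caspase and substrate genes 2 were higher, 3 lower and 7 not called (median -0.05, but 0.17 without control replicate 2). Only 1 was lower without control replicate 1, control replicate 2 or knockout replicate 3. Parp1, a nuclear substrate of effector caspases, and Lmna, the lamin cut by caspase-6, rose by 1.06 ± 0.16 and 0.77 ± 0.15 on the log2 scale. For Xkr8, the caspase-activated lipid scramblase, the log2 fold change was -1.31 ± 0.35 (edgeR adjusted p = 0.0091, and 0.0508 without control replicate 1, over a range of 0.00173 to 0.0508). Rock1, a kinase downstream of RhoA, changed by -0.59 ± 0.18 on the log2 scale (adjusted p = 0.0174), which turned to 0.11 with the length correction (0.635, the upper end of a range from 0.0123). Its call was also lost with library totals alone (0.163), without control replicate 2 (0.072) and without knockout replicate 3 (0.0531).

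In the PIDDosome list of 4 tested genes, Pidd1, the scaffold that activates caspase-2, rose to 3.16 ± 0.49 CPM under the knockout label, against 0.967 ± 0.202 CPM in controls (SD, n = 3 each; log2 fold change 1.71 ± 0.31, edgeR adjusted p = 0.000838). Mdm2, a substrate of caspase-2 and the main inhibitor of p53, fell by 2.09 ± 0.33 on the log2 scale. Madd, also placed in this list, fell by 1.01 ± 0.20, with a log2 fold change of -0.58 with the length correction. The adaptor Cradd was not called (adjusted p = 0.095), and Ank3 did not pass the filter. The median of the 4 was 0.07, but -0.13 without control replicate 3. In the list of inhibitor serpins and caspase modulators 4 of 12 genes rose, 4 fell and 4 were not called (median -0.13), with 2 called higher without knockout replicate 2. The shares called were 75.0% in the PIDDosome list and 66.7% in the inhibitor list, beside 43.2% of all tested genes. Mdm2 and Madd are not parts of the PIDDosome itself, so the share and median of its list do not describe that complex. Serpinb9, an inhibitor of granzyme B, fell by 2.34 ± 0.22 and Faf1, a FAS-associated factor, by 1.73 ± 0.24. Bcap31, a caspase-8 substrate of the endoplasmic reticulum, rose by 1.32 ± 0.12 and Cd24a by 3.07 ± 0.48.

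**Figure D4:**
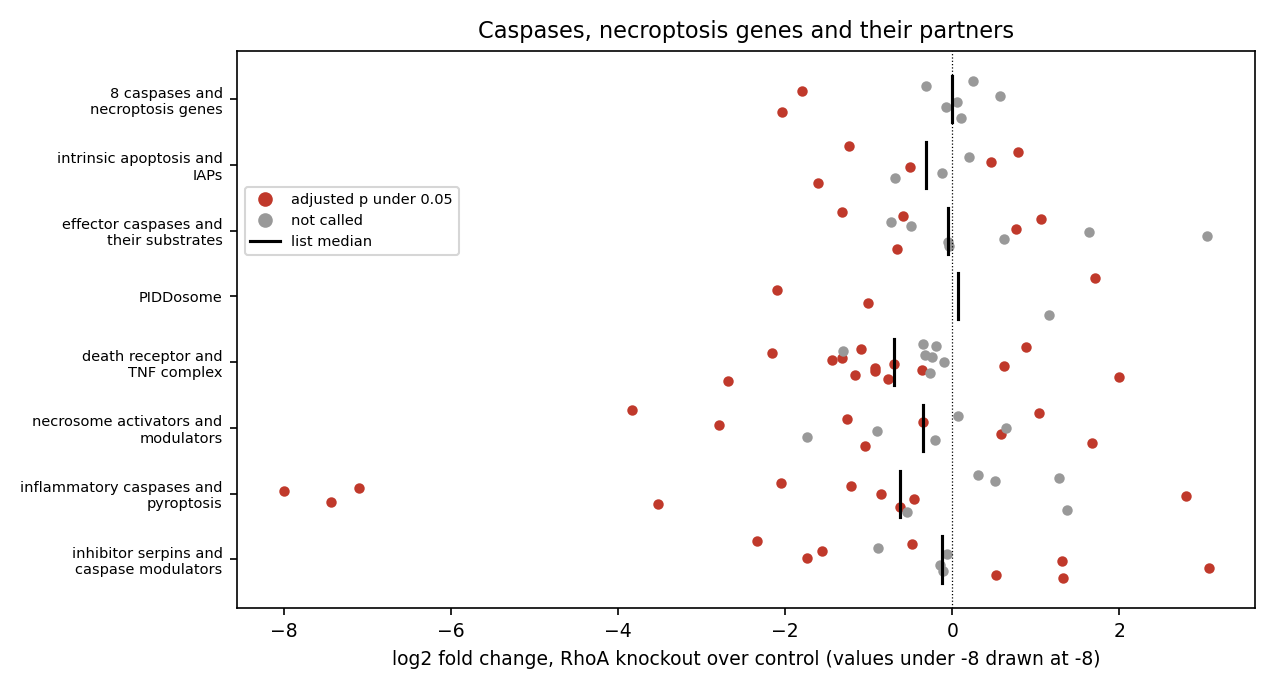
Log2 fold change, knockout label over control, of every tested gene of the 8 and of the 7 partner lists, with called genes in red, others in grey and list medians as black bars. The median lies at -0.005 for the 8 genes and at -0.69 for the death receptor list, and values under -8 are drawn at -8.

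The tested genes whose centred profile over the 6 libraries lay nearest to that of Mlkl were Cndp2, Slc31a2 and Oasl1, at Euclidean distances of 0.0777, 0.185 and 0.193 on the log2 scale, where the median gene lay at 2.31. Nearest to Casp4 were Scg2, Gramd1a and Rab6a at 0.241, 0.258 and 0.269, with a median of 2.56. Scg2 had no count under the knockout label and at most 0.557 CPM in controls, so its place rests on the constant added before taking logs.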

How the data were processed

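The deposited table holds whole-number counts per gene for 6 libraries, as the authors deposited them. Their totals differ and they were treated as raw counts, which differing totals alone do not show. The genome build was GRCm38, per the submitters' processing notes. For the aligner, the counter, the use of strand and reads with several matches the answer is: not given in the sources used here. Of 55487 gene IDs, 55227 matched GENCODE M21 without their version number. All 6 value columns were matched to samples by name. Multiples of 4 up to 40 occurred 1.23 to 1.42 times as often as neighbouring counts, for which no cause was tested, so counts may not be independent reads.

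The comparison was edgeR 4.0.16 in R 4.3.3 (filterByExpr, TMM, robust glmQLFit, glmQLFTest) over 12930 genes, with a common biological coefficient of variation of 0.323. CPM are TMM-scaled. SE is the log2 fold change over the square root of F. The procedure was tested on simulated data in which few genes changed and no length trend was built in, unlike in these data. Copies were sought with blastn 2.17.0 at 95% identity over 200 bases. Of the members, Ripk1 had such a match with 10% or more of its count, the overlapping Serpinb6a. Alternatives were DESeq2 1.42.0 and its size factors, library totals, other filters, the 10 most abundant genes left out, each library and both replicates 3 left out, a replicate block, a lowess length correction and counts divided by 4. Named partners are up to 4 called genes with the smallest p per list, or else the 2 of highest CPM; likeness names the 3 nearest genes for the 2 members of smallest p. Members, lists and tests were chosen with earlier results of these data known. Some genes of the lists are not reported here by name.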

Additional observations from a re-analysis of the deposited data

How the results depend on the processing

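Casp4 and Mlkl were called lower in all 16 alternatives, and no other member was called in any. Of the 6 uncalled members 5 changed sign. Leaving out replicate 3 of both groups gave log2 fold changes of 0.17 for Casp6 and -0.044 for Casp8. Library totals gave 0.12 for Casp6. The length correction gave 0.10 for Casp6, -0.11 for Casp8, 0.074 for Ripk1, -0.014 for Ripk3 and 0.11 for Rock1. With 1 library left out at a time, the log2 fold change ran from -0.12 to 0.30 for Casp2, from -0.19 to 0.054 for Casp6, from -0.055 to 0.20 for Casp8 and from 0.34 to 0.45 for Rhoa.

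The lists moved more. Library totals gave medians of -0.14 for the intrinsic apoptosis list and 0.24 for the PIDDosome list. They called 4 effector genes higher and 1 lower, and 2 of the inhibitor list lower. DESeq2 and counts divided by 4 also called 4 effector genes higher. The length correction gave medians of 0.14 for intrinsic apoptosis, 0.34 for the PIDDosome, -0.49 for the death receptor and -0.58 for the necrosome list. Counts divided by 4 gave -0.36 for the death receptor list. The stricter filter, which tests fewer genes, gave -0.28 for effector genes and -1.02 for the PIDDosome list. Without replicate 3 of both groups the median of the PIDDosome list was -0.11 and 3 necrosome genes were lower. Of pyroptosis genes 2 were called higher with library totals, DESeq2, counts divided by 4, the replicate block and without replicate 3 of both groups. With 1 library left out at a time, the intrinsic list had 1 to 2 genes higher (1 without control replicate 2) and a median of -0.42 to -0.16. The effector list had 1 to 4 genes lower (1 without control replicate 1, control replicate 2 or knockout replicate 3) and a median of -0.27 to 0.17. The median of the PIDDosome list ran from -0.13 to 0.29. The pyroptosis list had 1 to 2 genes higher (2 without control replicate 3 or knockout replicate 2), and the inhibitor list 2 to 4 (2 without knockout replicate 2). The cause of these shifts was not tested.

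Same-numbered samples did not deviate together (r = -0.0059, 0.028 and 0.014). This gives no sign of pairing but cannot show whether they were handled together, which the labels do not state. With the replicate number as a block, 2634 genes were called higher and 2738 lower, and the calls of the members stayed at 2 lower and 0 higher. The exact test of the ratios cannot pass 0.05 with 3 libraries per group.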
